A study of Mus musculus with 7 samples.

Results

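Serpins are protease inhibitors with a shared fold. An inhibitory serpin offers a target protease an exposed loop, is cut there, and then changes shape so that the protease is trapped and distorted. Clade A serpins are mostly secreted, while clade B serpins lack a classical secretion signal and act largely inside cells; several of them are made in surface epithelia, where trypsin-like, chymotrypsin-like and cathepsin proteases drive shedding of the outer layer and inflammation. The genes described here are 8 serpins of the epidermis: Serpina3b and Serpina12 of clade A, and Serpinb2, Serpinb3a, Serpinb3b, Serpinb5, Serpinb8 and Serpinb12 of clade B. Each was measured by the probe set that names it alone with the highest mean over the 7 arrays. Serpinb3b had no such probe set and was not analysed here, which left 7 of the 19937 genes measured. The genes were chosen by name with measured values of these arrays known, the log2 difference between day 6 and day 0 among them, and the probe sets were selected on their mean level. The day difference is therefore given for them as a description, without a p.

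RNA was hybridised to 7 Affymetrix Mouse Gene 1.0 ST arrays, of Iqgap1 knockout at day 6 (2 arrays), wild type at day 6 (2), Iqgap1 knockout at day 0 (2) and wild type at day 0 (1). Iqgap1 is a scaffold of the Ras-MAP kinase pathway, and the study compared mice with and without it under topical 4OHT (4-hydroxytamoxifen) given for 6 or 0 days. The agent stands in the label of every array, day 0 included, and all mice had a mixed C57BL/6 and 129 background. Age, any transgene that 4OHT acts on and the site of the tissue, labelled mouse tissue, are not in the labels. They do not state whether replicates are different mice, so each p measures only how far these arrays spread, which in the knockout groups may be technical.

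Iqgap1 itself was lower in all 4 knockout arrays (log2 8.58 to 9.02) than in all 3 wild-type arrays (9.94 to 10.59). The 6 basal keratinocyte markers averaged 11.55 to 11.73 at day 6 and 10.41 to 11.58 at day 0, and 5 suprabasal markers averaged 10.76 to 11.93 at day 6 and 11.04 to 11.93 at day 0, so keratinocyte RNA was present on every array, while the 4 measured hepatocyte markers, which would mark liver as a source of clade A serpins, never exceeded 5.75. Skeletal muscle markers averaged 9.07 to 9.82 at day 6 and 11.43 to 12.41 at day 0, and adipocyte markers 5.25 to 6.18 and 9.75 to 10.78, so RNA of tissue under the epidermis was present as well. In bulk RNA, fewer cells of a type and less RNA per cell cannot be told apart. Replicate 1 of wild type on both days had Xist signal (at least 10.30), and the other 5 arrays did not (4.03 or less) and had signal of Y-linked genes. The 2 wild-type replicates of day 6 therefore differ in sex and are not from 1 mouse. At day 0, sex cannot be told apart from genotype. Probe sets of Xist and Y-linked genes read 3.50 to 4.25 on arrays where they gave no signal, which serves below as the level of an unexpressed gene.

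Serpina3b, a member of the Serpina3 group that has multiplied in mice, was the most strongly lowered of the 7 genes at day 6. Its log2 values were 4.44 and 4.38 in knockout and 4.65 and 4.15 in wild type at day 6, against 10.59 and 10.07 in knockout and 10.35 in the wild type of day 0. The groups of the 2 days lay far apart and the genotypes overlapped on both days. The day 6 values lay at or just above the level of an unexpressed gene, so the log2 difference of -5.93 ± 0.18 (SE), which equals a 61.0-fold difference, has no exact size. It was -5.92 ± 0.24 in knockout and -5.95 ± 0.30 in wild type (SE). The interaction, that is the day change in knockout minus that in wild type, was 0.03 ± 0.39 (SE; limma adjusted p = 0.983), and knockout differed from wild type by 0.01 ± 0.24 (SE; limma adjusted p = 1.00) at day 6. The genes with the most similar profile, by the root mean square difference between log2 values centred on their own mean over the 7 arrays, were Krt77, a keratin of the epidermis and sweat ducts (0.37), Lep, which encodes leptin (0.42), and Pvalb, which binds calcium in fast muscle (0.68). Lep is one of the adipocyte markers and Pvalb one of the muscle markers used here. All 4 adipocyte and 5 of 6 muscle markers also fell at day 6, as did 3 of 5 markers of the hair follicle (list mean 8.07 to 8.55 at day 6 and 9.85 to 9.95 at day 0) and 2 of 5 of the sebaceous gland (6.30 to 9.30 and 10.09 to 10.92) and 2 of 3 of Langerhans cells (7.75 to 8.15 and 9.29 to 9.76), against 5.62% of all genes that passed downward. Of suprabasal, neutrophil, macrophage, mast cell and hepatocyte markers, 0 passed, and 1 of 6 basal and 5 of 5 stress keratinocyte markers rose; their part in the lower Serpina3b signal was not tested. The promoter window of Serpina3b is shown because its signal differed most between the 2 days. It covers 250 bases before and 50 after the annotated start, at chr12:104127746-104128045 of GRCm38.p6 on the plus strand (RefSeq). Capitals mark TATAAA, searched on both strands, which here begins 28 bases before the start.
Serpina3b: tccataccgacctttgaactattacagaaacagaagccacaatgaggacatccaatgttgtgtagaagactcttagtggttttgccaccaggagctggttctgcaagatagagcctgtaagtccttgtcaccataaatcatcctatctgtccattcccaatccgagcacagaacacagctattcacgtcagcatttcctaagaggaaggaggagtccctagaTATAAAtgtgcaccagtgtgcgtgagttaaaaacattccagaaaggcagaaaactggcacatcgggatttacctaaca
The letters TATAAA occur in 13.6% of 32851 promoter windows of the same length.

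**Figure D1:**
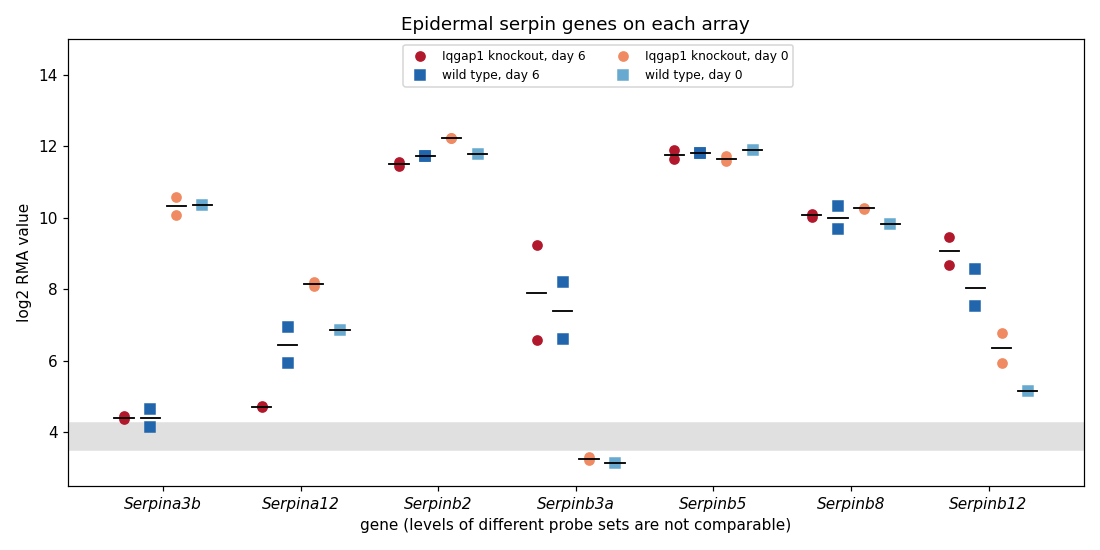
Log2 RMA values of the 7 serpin genes (horizontal axis) on each array (vertical axis), with circles for knockout and squares for wild type, day 6 left of day 0 and bars at group means. The grey band spans 3.50 to 4.25, the level of Xist and Y-linked genes on arrays without their signal. Serpina3b at day 6 sits at or just above the band, Serpinb3a at day 0 below it, and Serpinb2, Serpinb5 and Serpinb8 stay within about 1 log2 unit on all arrays.

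Serpina12, or vaspin, was first described as a product of fat tissue and in humans inhibits the epidermal protease KLK7. Its day change differed between genotypes on these arrays, and it was the only 1 of the 7 genes whose interaction passed the test. The interaction is built from day changes, and the genes were chosen with the day difference known. Its p is therefore not independent of that choice. Its log2 values were 4.72 and 4.70 in knockout and 6.95 and 5.93 in wild type at day 6, against 8.09 and 8.21 in knockout and 6.87 in the wild type of day 0. Knockout arrays were the lowest of all at day 6 and the highest at day 0, while the wild-type array of day 0 lay between those of day 6. The day change was -3.44 ± 0.31 in knockout and -0.43 ± 0.38 in wild type (SE). The knockout values of day 6 lay just above the level of an unexpressed gene, so the sizes of the knockout change and of the interaction are not exact. The difference between the genotypes, -3.01 ± 0.49 (SE), passed the test over all genes (limma adjusted p = 0.0285). For the interaction 3.1% of all genes passed, in either direction, and 1 of these 7 did. The genotype difference was -1.73 ± 0.31 at day 6 (SE; limma adjusted p = 0.801) and 1.28 ± 0.38 at day 0 (SE; limma adjusted p = 0.0700), and neither passed.

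The Serpina12 difference rests on few arrays. Over 11 other settings its size stayed between -3.51 and -2.50, but the adjusted p ran from 0.00300 to 0.109 and passed in 6 of them. It was lost without any 1 of the 4 knockout arrays, with adjusted p of 0.109 and 0.0782 without day 6 replicates 1 and 2, and 0.0714 and 0.0736 without day 0 replicates 1 and 2. It was also lost (adjusted p = 0.0553) when all probe sets were tested. The sole wild-type day 0 array, which has Xist signal, enters every such value. Compared with it, wild-type day 6 replicate 1, which also has Xist signal, differed by 0.08, and replicate 2, which does not, by -0.94; their part in the result was not tested. At day 6 the knockout mean differed by -1.22 from wild-type replicate 2, which like the knockout arrays has no Xist signal, and by -2.23 from replicate 1.

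The 4 measured adipocyte markers (Adipoq, Lep, Plin1 and Retn) all fell in both genotypes, with a median log2 difference of -4.60 in knockout and -3.86 in wild type, and 0 of 4 passed for the interaction (median -1.16). Their mean was 5.25 and 6.18 in knockout and 6.16 and 5.70 in wild type at day 6, against 10.78 and 10.30 in knockout and 9.75 in the wild type of day 0. In wild type the Serpina12 values of the 2 days overlapped while the fat marker means of the 2 days did not. Of the basal keratinocyte markers, 3 of 6 passed for the interaction, each with a lower day change in knockout, against 3.1% of all genes. For genotype at day 6, 0 of 6 passed, but limma called 0 of all 19937 genes there. At day 0 their median log2 difference, knockout minus wild type, was 0.94, beside -0.09 over all genes. The basal marker mean was 10.41 in the sole wild-type day 0 array, which has Xist signal. It was 11.55 and 11.59 in wild type at day 6, and 11.46 to 11.73 in the knockout arrays of both days. The low mean thus rests on that wild-type day 0 array. The part of these markers in the Serpina12 result was not tested. Klk7, the known target in humans, read 12.50 and 12.55 in knockout and 12.83 and 12.45 in wild type at day 6, against 12.02 and 12.13 in knockout and 12.62 in the wild type of day 0; the days overlapped (0.28 ± 0.16, SE, limma adjusted p = 0.315). The profiles most like that of Serpina12 were those of Cdo1, cysteine dioxygenase (0.38), Timp4, an inhibitor of metalloproteinases (0.43), and Calcb, a calcitonin-related neuropeptide (0.44).

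**Figure D2:**
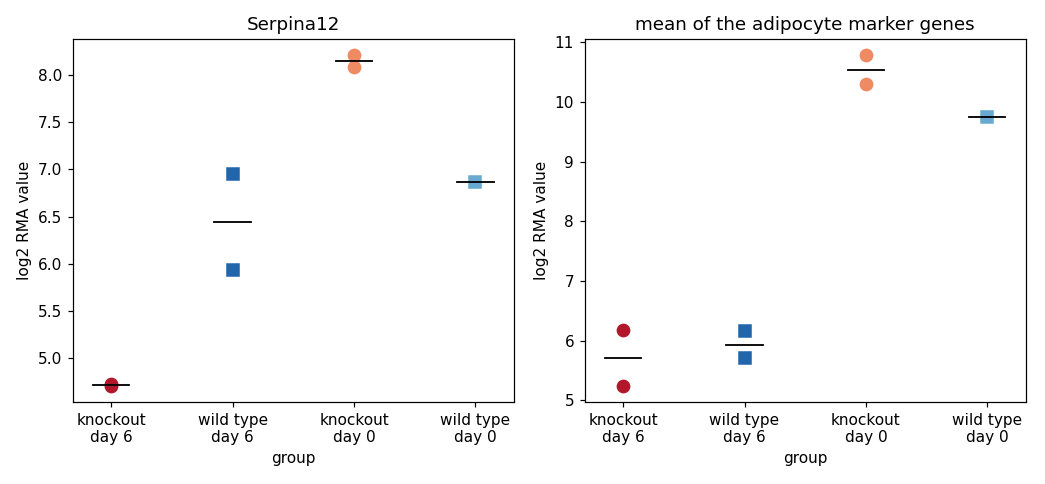
Log2 RMA values of Serpina12 (left) and the mean over 4 adipocyte marker genes (right) in each group, 1 point per array, circles for knockout, squares for wild type and bars at group means; the vertical axes differ and do not start at 0. Serpina12 overlaps between day 6 and day 0 in wild type but not in knockout, while the adipocyte mean is at most 6.18 on all day 6 arrays and at least 9.75 on all day 0 arrays.

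Serpinb3a is a mouse counterpart of the human squamous cell carcinoma antigens, which inhibit cathepsins and chymotrypsin-like proteases. It was higher on every day 6 array than on every day 0 array. Its log2 values were 9.24 and 6.58 in knockout and 6.60 and 8.20 in wild type at day 6, against 3.22 and 3.30 in knockout and 3.13 in the wild type of day 0. All day 0 values lay below the level of an unexpressed gene, so the log2 difference of 4.50 ± 0.66 (SE) has no exact fold. The difference was 4.65 ± 0.85 in knockout and 4.27 ± 1.05 in wild type (SE), and the wild-type one did not pass. That in knockout was 3.32 without day 6 replicate 1 and 5.98 without replicate 2. At day 6 the arrays of each genotype differed by 2.66 in knockout and 1.60 in wild type, the widest spread of the 7 genes, and the genotypes overlapped. Knockout minus wild type at day 6 was 0.51 ± 0.85 (SE; limma adjusted p = 0.944). Serpinb3d, its neighbour in RefSeq gene order and no member of the set, read 8.80 and 4.91 in knockout and 5.0 and 7.12 in wild type at day 6, against 3.24 and 3.35 in knockout and 3.89 in the wild type of day 0. The 4 day 6 arrays thus took the same order for both genes, with knockout replicate 1 highest and wild-type replicate 2 next. Stress keratinocyte markers (Krt6a, Krt6b, Krt16, S100a8 and S100a9) did not spread in this way at day 6. Their mean at day 6 was 12.25 and 12.20 in knockout and 12.34 and 12.25 in wild type. At day 0 it was 8.44 and 10.17 in knockout and 8.28 in wild type. The day 6 means lay near the highest value of all arrays, 13.38. Whether a ceiling limited their spread was not tested. Profiles closest to that of Serpinb3a were those of Cdhr1, a cadherin-related gene (0.59), Lce3f, a late cornified envelope gene (0.78), and Tmprss11g, a membrane serine protease (0.81).

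The Serpinb3 genes are close copies, and the promoter windows of Serpinb3a, Serpinb3b and Serpinb3c were closely alike. Over 276 aligned bases the windows of Serpinb3a and Serpinb3b were 93.1% identical, those of Serpinb3b and Serpinb3c were 96.2% identical over 290 bases, and that of Serpinb3d was 67.4% identical to that of Serpinb3a over 218 bases. For comparison, the window of Serpina12 was 59.5% identical to that of Serpinb3a, the lowest value among the set, and that of Serpinb5 60.7%. The window of Serpinb8, which is outside the Serpinb3 group, was nearly as identical to that of Serpinb3a as that of Serpinb3d was. The identity of the Serpinb3d window is therefore not set apart from that of other serpins. Whether the probe sets of the near copies in the Serpinb3 group pick up each other's transcripts was not tested, so the signal of Serpinb3a is uncertain to that extent. Serpinb3c read 4.74 and 3.99 in knockout and 4.11 and 3.93 in wild type at day 6, against 3.50 and 3.60 in knockout and 3.73 in the wild type of day 0, near the level of an unexpressed gene (0.60 ± 0.22, SE, limma adjusted p = 0.129). The 2 windows below are shown for this likeness; they lie on the minus strand of GRCm38.p6 at chr1:107052254-107052553 and chr1:107161065-107161364 (RefSeq), are written 5′ to 3′ along the gene, and have TATAAA in capitals.
Serpinb3a: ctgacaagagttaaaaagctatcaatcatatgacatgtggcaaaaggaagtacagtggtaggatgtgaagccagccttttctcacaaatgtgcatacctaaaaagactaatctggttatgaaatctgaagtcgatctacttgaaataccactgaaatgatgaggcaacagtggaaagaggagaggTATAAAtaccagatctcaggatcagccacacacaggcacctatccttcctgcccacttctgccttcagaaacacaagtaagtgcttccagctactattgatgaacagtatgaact
Serpinb3b: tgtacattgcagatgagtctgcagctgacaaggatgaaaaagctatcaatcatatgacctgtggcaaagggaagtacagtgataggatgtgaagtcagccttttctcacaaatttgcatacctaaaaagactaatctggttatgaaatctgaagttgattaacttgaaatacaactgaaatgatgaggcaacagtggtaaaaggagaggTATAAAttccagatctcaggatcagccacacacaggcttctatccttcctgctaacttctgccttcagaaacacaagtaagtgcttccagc
TATAAA begins 65 bases before the annotated start in Serpinb3a and 41 bases before it in Serpinb3b.

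Serpinb12 inhibits trypsin-like proteases in humans. It was higher at day 6 in both genotypes. Its log2 values were 9.47 and 8.69 in knockout and 7.53 and 8.56 in wild type at day 6, against 5.94 and 6.77 in knockout and 5.15 in the wild type of day 0. All day 6 arrays lay above all day 0 arrays, and every value lay above the level of an unexpressed gene. The log2 difference was 2.79 ± 0.34 (SE), a 6.93-fold higher level at day 6. It was 2.72 ± 0.44 in knockout and 2.90 ± 0.54 in wild type (SE), with an interaction of -0.18 ± 0.70 (SE; limma adjusted p = 0.937). Knockout arrays lay above wild-type arrays on each day, by 1.03 ± 0.44 at day 6 (SE; limma adjusted p = 0.801) and 1.21 ± 0.54 at day 0 (SE; limma adjusted p = 0.185), but neither difference passed. Its nearest profiles were Fam3b, a secreted cytokine-like protein (0.30), Nat8l, an N-acetyltransferase (0.31), and Ttc39a (0.36).

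Serpinb2, plasminogen activator inhibitor 2 (PAI-2), blocks urokinase and tissue plasminogen activator. Its log2 values were 11.55 and 11.44 in knockout and 11.72 and 11.72 in wild type at day 6, against 12.22 and 12.22 in knockout and 11.77 in the wild type of day 0. The 2 knockout arrays of day 0 stood above all others, and the wild-type arrays of both days lay within 0.05 of each other. The day difference was -0.72 ± 0.15 in knockout and -0.05 ± 0.18 in wild type (SE); the wild-type value was 0.02 when arrays were centred on their medians. Knockout minus wild type was -0.22 ± 0.15 at day 6 (SE; limma adjusted p = 0.833) and 0.45 ± 0.18 at day 0 (SE; limma adjusted p = 0.146). The interaction, -0.68 ± 0.23 (SE), did not pass (limma adjusted p = 0.204). Plau, which encodes urokinase, read 9.78 and 10.08 in knockout and 10.47 and 10.33 in wild type at day 6, against 8.31 and 9.30 in knockout and 7.29 in the wild type of day 0. It rose by 1.92 ± 0.44 on the log2 scale over both genotypes (SE; limma adjusted p = 0.0384), and the change did not pass in knockout alone (1.13 ± 0.32, SE, limma adjusted p = 0.0566). Plat, which encodes tissue plasminogen activator, changed by 0.12 ± 0.22 and did not pass (SE; limma adjusted p = 0.782).

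Serpinb5 (maspin, a serpin that does not act as a classical protease inhibitor) and Serpinb8 (an inhibitor of furin in humans) stayed nearly level. Serpinb5 read 11.88 and 11.64 in knockout and 11.82 and 11.82 in wild type at day 6, against 11.71 and 11.60 in knockout and 11.90 in the wild type of day 0. The days overlapped, with a log2 difference of 0.03 ± 0.12 (SE). Serpinb8 read 10.12 and 10.02 in knockout and 10.32 and 9.68 in wild type at day 6, against 10.28 and 10.25 in knockout and 9.82 in the wild type of day 0, again with overlap (-0.05 ± 0.19, SE). Their genotype differences were -0.06 ± 0.16 and 0.07 ± 0.23 at day 6, and -0.25 ± 0.20 and 0.45 ± 0.28 at day 0 (SE); limma adjusted p lay between 0.329 and 0.982. The Serpinb8 window is shown because it holds 2 copies of the AP-1 letters TGANTCA, more than any other window of these genes; it lies at chr1:107589756-107590055 of GRCm38.p6 on the plus strand (RefSeq), with the copies in capitals.
Serpinb8: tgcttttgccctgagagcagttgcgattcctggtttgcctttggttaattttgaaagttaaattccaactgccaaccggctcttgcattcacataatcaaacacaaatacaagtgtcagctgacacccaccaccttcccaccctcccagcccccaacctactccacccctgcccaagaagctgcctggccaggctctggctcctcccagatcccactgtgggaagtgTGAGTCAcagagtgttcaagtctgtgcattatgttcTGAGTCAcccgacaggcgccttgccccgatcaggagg
They begin 23 bases before and at base 14 from the annotated start. AP-1 is the family of Fos and Jun factors.

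The 8 genes have 10 annotated promoter windows, of which 5 hold TGANTCA (searched on both strands, where it reads the same): 1 each for Serpinb5, Serpinb8 and Serpinb12, and 2 overlapping windows of Serpinb2 that contain the same copy. Across all 32851 windows the share was 7.81%, and across 53 windows of other serpins 13.2%. TATAAA stood in 7 of the 10 windows, with none in those of Serpinb5, Serpinb8 and Serpina12, and no copy of either motif overlapped one of the other. The windows of Serpina3b, Serpina12, Serpinb3a and Serpinb3b held no AP-1 match. Whether a match in a window bears on the day change was not tested.

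**Figure D3:**
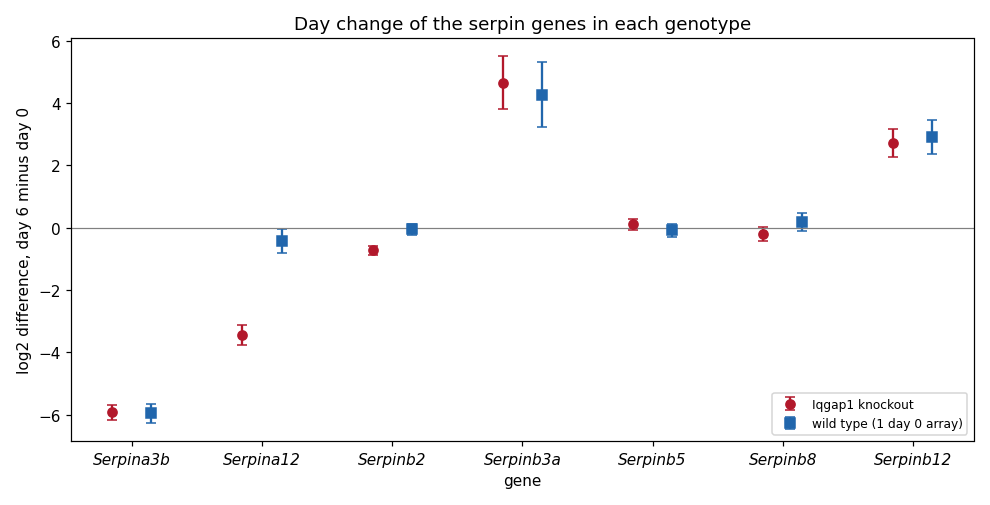
Log2 difference, day 6 minus day 0 (vertical axis), of each serpin gene (horizontal axis) for knockout (circles, 2 arrays each day) and wild type (squares, 2 arrays at day 6 and 1 at day 0), with limma standard errors as bars. For Serpina3b, Serpinb3a and Serpinb12 the genotypes differ by less than 1 standard error, while Serpina12 is at -3.44 in knockout and -0.43 in wild type.

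Counted over both genotypes, 3 of the 7 genes passed for the day change, Serpinb3a and Serpinb12 upward and Serpina3b downward, against 11.5% of all genes in either direction (5.85% higher and 5.62% lower). Since the genes were proposed on this contrast, nothing is read from the count. In 4 of 7 the arrays of the 2 days did not overlap, against 21.5% of all genes. The median log2 difference was -0.05, beside 0.06 over all genes. By genotype, 5 passed in knockout, 2 higher and 3 lower (16.3% of all genes, 7.24% higher and 9.07% lower), and 2 in wild type, 1 higher and 1 lower (7.11%, 3.51% higher and 3.61% lower). For knockout against wild type, 0 of 7 passed at day 6, where limma called 0 of 19937 genes (0.0%), with 1182 at an unadjusted p under 0.05. At day 0, 0 of 7 passed, against 14.4% of all genes. Over both days 0 of 7 passed and limma called 0.0% of all genes, with 3729 genes at an unadjusted p under 0.05. At day 6 the knockout and wild-type arrays did not overlap for 3 of 7 genes (Serpina12, Serpinb2 and Serpinb12), against 31.6% of all genes.

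Of the 41 other serpins measured, 2 rose and 6 fell at day 6 over both genotypes, with a median log2 difference of -0.03, beside 0.06 over all genes, and against 11.5% of all genes that passed in either direction. Serpinb6c rose by 3.15 ± 0.51 (SE; limma adjusted p = 0.0132), with values of 10.11 and 10.19 in knockout and 10.10 and 10.29 in wild type at day 6, against 7.64 and 8.38 in knockout and 5.52 in the wild type of day 0. Serpina9, a gene of germinal centre B cells in humans, rose by 1.69 ± 0.26 (SE; limma adjusted p = 0.0115), although its value in the wild type of day 0 (6.33) lay above both knockout values of day 6 (6.20 and 5.93). Serpinb7, whose loss causes a palmoplantar skin disorder in humans, fell by 3.11 ± 0.46 on the log2 scale (SE; limma adjusted p = 0.0100). It read 5.16 and 4.71 in knockout and 6.20 and 4.63 in wild type at day 6, against 8.66 and 8.68 in knockout and 7.61 in the wild type of day 0. Serpinb6d, Serpinb6e and Serpinb9, an inhibitor of granzyme B, fell by 1.24 ± 0.13, 1.47 ± 0.22 and 1.00 ± 0.18 (SE; limma adjusted p = 0.00362, 0.0107 and 0.0187). Serpinb6e read 3.68 to 3.98 at day 6, within the level of an unexpressed gene, so its difference has no exact size. The other 2 that fell, named after their values were seen, were Serpinf1 and Serpinh1, a collagen chaperone, by 1.11 ± 0.26 and 1.28 ± 0.30 (SE; limma adjusted p = 0.0399 and 0.0410). Serpinb10, Serpinb13 and Serpinb6c, likewise named after their values were seen, passed for the interaction (3 of 41, against 3.1% of all genes), at -1.97 ± 0.37, 1.40 ± 0.26 and -2.54 ± 0.40 (SE; limma adjusted p = 0.0412, 0.0390 and 0.0266). Serpinb13 read 3.56 to 3.80 at day 6 and 4.17 and 4.25 in knockout at day 0, at the level of an unexpressed gene, and 5.56 in the wild type of day 0, so its interaction rests on that 1 array and has no exact size. All 3 also passed for knockout against the sole wild-type array at day 0 (limma adjusted p = 0.00365, 0.0083 and 0.00501).

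Along chromosome 1 the 12 clade B serpins of the cluster stand in the RefSeq order Serpinb5, Serpinb12, Serpinb13, Serpinb3a, Serpinb3d, Serpinb3b, Serpinb3c, Serpinb11, Serpinb7, Serpinb2, Serpinb10 and Serpinb8, and 11 of them were measured. Serpinb3a and its neighbour Serpinb3d were both higher on every day 6 array than on every day 0 array, although Serpinb3d did not pass (3.01 ± 0.97, SE, limma adjusted p = 0.0996). Serpinb12 and Serpinb3a were higher at day 6, while Serpinb13, which lies between them, changed by -1.05 ± 0.29 (SE; limma adjusted p = 0.0630) and did not pass; it read at the level of an unexpressed gene on every array but the wild type of day 0, so this difference has no exact size. Serpinb7 fell beside Serpinb11, which changed by -0.05 ± 0.21 (SE; limma adjusted p = 0.906). In the clade A cluster of chromosome 12, Serpina3b lies next to Serpina3a, which read 4.02 to 4.21 at day 6 and 3.99 to 4.24 at day 0, at the level of an unexpressed gene on every array. Serpina12 lies next to Serpina9, which rose.

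**Figure D4:**
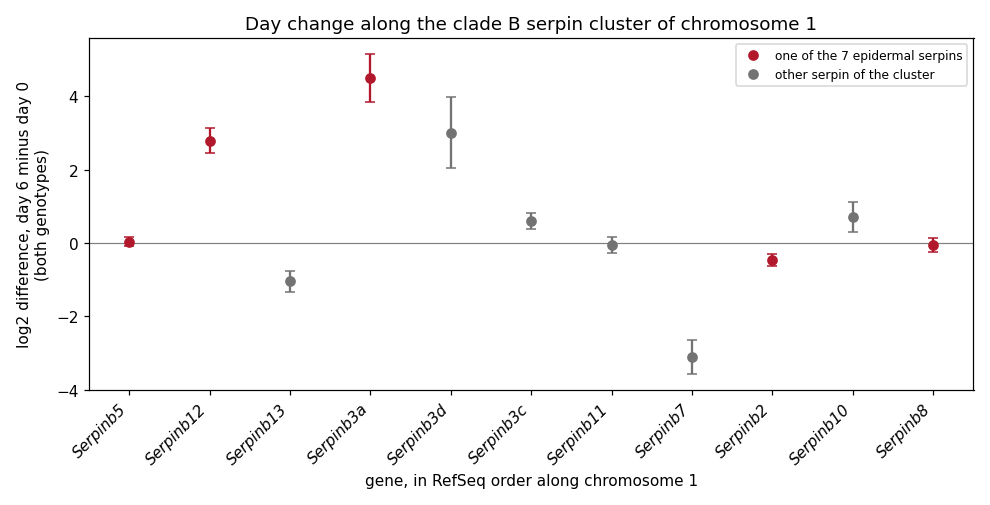
Log2 difference, day 6 minus day 0 over both genotypes (vertical axis), of the 11 measured clade B serpins in RefSeq order along chromosome 1 (horizontal axis), with limma standard errors as bars; red points are genes of the set described here and grey points the other serpins. Serpinb12, Serpinb3a and Serpinb3d lie above 2 and Serpinb7 below -3, with Serpinb13 between the first pair at -1.05.

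Among 30 proteases and other inhibitors of the epidermis and the plasminogen system, 12 rose, 0 fell and 18 did not pass at day 6, against 11.5% of all genes that passed in either direction (median log2 difference 0.46, beside 0.06 over all genes). The list was chosen with earlier results of these data known, so nothing is read from this count. Slpi, an inhibitor of neutrophil elastase, rose by 4.62 ± 0.33 and the membrane protease gene Tmprss11a by 3.04 ± 0.21 (SE; limma adjusted p = 0.000968 and 0.000946). The kallikreins Klk13 and Klk14 rose by 4.64 ± 0.41 and 3.34 ± 0.27 (SE; limma adjusted p = 0.00193 and 0.00146). Furin and the listed cathepsins, named with their values known, did not pass over both genotypes. Furin changed by 0.88 ± 0.28, Ctsl by 0.44 ± 0.18 and Ctss by 0.51 ± 0.19 (SE, limma adjusted p = 0.0999, 0.181 and 0.135). Ctsk changed by 0.17 ± 0.35, Ctsb by 0.05 ± 0.11 and Ctsg by -0.33 ± 0.12 (SE, limma adjusted p = 0.815, 0.82 and 0.147). Cma1 and Elane, also listed, changed by -0.05 ± 0.18 and 0.33 ± 0.17 (SE, limma adjusted p = 0.895 and 0.263). In wild type alone, measured against its sole day 0 array, Furin rose by 1.70 ± 0.21, Ctss by 0.96 ± 0.21 and Ctsk by 1.2 ± 0.23 (SE; limma adjusted p = 0.00575, 0.0406 and 0.028), while in knockout they changed by 0.34, 0.22 and -0.52 and did not pass (limma adjusted p = 0.257, 0.465 and 0.123). The interaction passed for Ctsk at -1.71 ± 0.30 and not for Furin or Ctss, at -1.36 ± 0.27 and -0.74 ± 0.27 (SE; limma adjusted p = 0.0339, 0.0515 and 0.217). At day 0 knockout was higher than wild type for Furin by 1.42 ± 0.21 and for Ctsk by 1.36 ± 0.23 (SE; limma adjusted p = 0.00849 and 0.0132).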

How the data were processed

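The deposited values are log2 expression values, 1 column per array, which the authors computed by RMA using R 2.11.1 (source: per the submitters' processing notes). RMA subtracts background, matches array distributions and summarizes probes, which compresses low values. The log2 scale was read from the range of 2.37 to 13.38. Other RMA settings and the genome build are not given in the sources used here. The number of arrays limits the precision. Per the labels' protocols, macerated tissue went through an RNeasy kit and cDNA was made with a MessageAmp III kit.

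Of 34760 probe sets, 21640 had 1 gene symbol in the platform annotation and 1321 several; the others stayed unnamed. The highest-mean probe set naming a gene alone represented it, giving 19937 genes, of which 19855 matched RefSeq genes of GRCm38.p6 (names and gene order only). Promoters come from RefSeq.

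Tests used limma 3.58.1 in R 4.3.3, two-sided. P-values were adjusted by Benjamini-Hochberg across the 19937 genes, and 0.05 was the threshold. An additive model gave the day difference over both genotypes and the genotype difference over both days; the other comparisons came from 1 fit of 4 group means, in which the single wild-type day 0 array is assumed to vary like the other groups. The simulations changed 200 of 19937 genes, fewer than passed in the real data for day, genotype at day 0 and the interaction. With more genes passing, the adjusted threshold is less strict, so the shares recovered may be too low for those comparisons. In simulated data the tests of genotype at day 6, genotype at day 0 and the interaction recovered 0% of 2-fold changes. They recovered 78%, 66% and 35.3% of 4-fold changes, in that order. For day and for genotype over both days, 53.6% and 57.2% of 2-fold changes were recovered. A genotype difference or interaction that did not pass therefore does not show that the genotypes were equal. The members and lists were chosen with earlier results of these data known. Named are all members, their 3 nearest profiles (for those discussed), and up to 4 rises and 4 falls of smallest p among other serpins and among 30 proteases and inhibitors. Of the listed markers Flg, Dsg1a, Cfd and Serpina1a were not used here.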

Additional observations from a re-analysis of the deposited data

Results flagged for a closer look

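The interaction of Serpina12, its day change in knockout minus that in wild type, was -3.01 on the log2 scale and passed the test of that difference (limma adjusted p = 0.0285). That p is not independent of how the genes were chosen. Serpinb2 drew attention because both its knockout arrays lay below both wild-type arrays at day 6 and above the wild-type array at day 0; its interaction was -0.68 and did not pass (limma adjusted p = 0.204).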

How the results depend on the processing

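Across 14 alternative settings, 534 differences of single genes were recomputed. Of these, 482 kept their direction and side of the threshold or, where no test was made, moved by less than the replicate spread. Some could not change in size, because the array left out lay outside the comparison or only the variance model differed. The share that stayed is therefore no measure of robustness by itself. The count of the 7 genes that passed for the interaction was 1, and 0 among genes above the median level (where 2 of the 7, Serpina12 included, were not tested) and over all probe sets; it was 0 to 1 when 1 array was left out. For the day change the count was 3, and 5 without the 2 arrays that had Xist signal (the day 0 arrays left are then knockout); it ran from 3 to 5 when 1 array was left out, with 5 without the wild-type day 0 array. For genotype at day 6 and at day 0 the count was 0, and 0 to 1 when 1 array was left out: Serpina12 passed at day 6 without wild-type day 6 replicate 2 (adjusted p = 0.0184) and at day 0 without either wild-type day 6 array (adjusted p = 0.00732 for each). Of other serpins 8 passed for the day change, 4 among genes above the median level, and 4 to 9 when 1 array was left out, with 5 without either knockout day 6 array and 4 without knockout day 0 replicate 1. The protease count was 10 to 12 throughout. Calls over all genes moved too. For the day change 2286 of 19937 genes passed in the main fit and 3251 without the wild-type day 0 array. They also rose without the 2 arrays that had Xist signal. For genotype they rose at day 6 without wild-type day 6 replicate 2, and at day 0 without either wild-type day 6 array. Nothing is read from the changed counts of the 7 genes.

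Differences near 0 that never passed changed sign. With arrays centred on their medians, which moves differences between knockout and wild type by 0.10 at day 0 and day changes in knockout by -0.11, the genotype difference at day 6 was -0.059 for Serpina3b and -0.0027 for Serpinb8. Without the arrays with Xist signal it was -0.29 for Serpinb3a. When 1 array was left out, the genotype difference at day 6 ran from -0.24 to 0.26 for Serpina3b, -0.82 to 1.84 for Serpinb3a, -0.18 to 0.062 for Serpinb5 and -0.25 to 0.39 for Serpinb8, that at day 0 from -0.28 to 0.24 for Serpina3b, and the interaction from -0.23 to 0.29 for Serpina3b, -0.95 to 1.71 for Serpinb3a and -0.69 to 0.34 for Serpinb12. The cause was not tested.

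Same-numbered replicates deviated from their group means with correlations of 0.227 (knockout and wild type at day 6), 0.0862 and 0.0365 across genes. The numbers were therefore not taken to pair the arrays in the main fits. The sebaceous marker mean did go with the replicate number at day 6. It was 6.30 in knockout and 6.45 in wild type for replicate 1, and 9.30 and 9.25 for replicate 2. The reason was not tested. With the replicate number as a block, 1 of the 7 genes passed for the interaction (Serpina12, -3.16), 3 passed for the day change, and the genotype difference at day 0 for Serpina3b was 0.16 and its interaction -0.15, that of Serpinb12 being 0.0019. A second probe set could not be tried, since no member had one. Without the wild-type day 0 array neither genotype at day 0 nor the interaction could be fitted.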
